A study of Saccharomyces cerevisiae with 4 samples.

Results

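HSP30, MRH1 and YRO2 are 3 budding yeast genes that code for related proteins of cell membranes. They were chosen by gene symbol in the probe annotation, which gives each of them 1 probe set, so that 3 of 5436 genes with a value are described here. Total RNA from Saccharomyces cerevisiae cells in exponential growth in rich medium (YPD) was measured on 4 Affymetrix expression arrays, 1 array for each of 4 groups. The control strain was BY4741, whose genotype in the labels is mating type a with his3Δ1, leu2Δ0, met15Δ0 and ura3Δ0, kept at 30 °C or exposed to 40 °C for 30 min. The other strain carries the label BY4741hsp30Δ::kanMX, in which a drug resistance cassette takes the place of HSP30 in the same parent, and was kept and exposed in the same way. The study asked which genes were higher or lower in the hsp30Δ cells than in the control. Nothing in the labels says how many cultures or clones each strain stands for, and no group has a replicate, so each value below is 1 array with no spread (the unheated and heated control, and the unheated and heated hsp30Δ-labelled array), and neighbouring levels in any order of arrays cannot be said to differ beyond error.

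Hsp30 is a stress-induced protein of the plasma membrane, known as a negative regulator of Pma1, the ATP-driven pump that exports protons and uses much of the cell's ATP. Its gene is known to be induced by heat shock, by weak organic acids such as sorbate, by ethanol and on entry into stationary phase. Mrh1 and Yro2 are its closest relatives in this yeast. The 3 proteins cross the membrane several times and resemble the microbial rhodopsins, the light-driven ion pumps and sensors of other microbes. YRO2 is known as a target of Haa1, a transcription factor of the weak acid response, and Mrh1 is an abundant plasma membrane protein.

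HSP30 checks the strain labels, and it did not follow them. On the log2 scale its probe set read 15.51 on the unheated control, 14.18 on the heated control, 15.18 on the unheated hsp30Δ-labelled array and 15.91 on the heated one. Its highest value was thus on an array of the strain said to lack it, and its lowest was on the heated control. On the heated hsp30Δ-labelled array only 6 of 5430 genes above background read higher, the metallothionein gene CUP1-1 (16.19), the small heat shock genes HSP26 (16.07) and HSP12 (16.00), the Hsp70 gene SSA1 (15.94), HOR7 (15.94) and YDR316W-B (15.92). The positions of the probes along HSP30 were not used here; probes outside the part that was deleted would check nothing. The genes of the parent's own markers gave mixed readings. MET17, the current name of MET15, was at the lowest value of the table, 1.95, on all 4 arrays, and the highest of 32 fission yeast probe sets, which have no target in these cells, reached 2.84. HIS3, whose his3Δ1 allele is known as a deletion of part of the gene, read far above background on every array, at 12.36 on the unheated and 10.22 on the heated control, and at 9.95 and 10.15 under the hsp30Δ label. All 4 groups carry the same his3 allele by label. The strain difference of HIS3 was -2.41 at 30 °C and -0.07 at 40 °C, and its heat difference within BY4741 was -2.14. Of all genes 21.4% were at least 2-fold lower for the strain label at 30 °C and 18.8% for heat in BY4741. These differences of HIS3 thus do not check the labels. LEU2 and URA3 have no value used here. Because HSP30 did not follow the labels, all strain directions below are directions between labels.

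MRH1 hardly varied. Its values were 15.08 on the unheated control, 15.03 on the heated control, 14.79 on the unheated hsp30Δ-labelled array and 15.08 on the heated one. The whole range over the 4 arrays was 0.29 log2 units, smaller than that of all but 3.26% of genes, while the median gene ranged over 1.15. The unheated hsp30Δ-labelled array was the low one, and the other 3 differed by at most 0.05.

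YRO2 read 14.50 on the unheated control, 15.02 on the heated control, 15.21 on the unheated hsp30Δ-labelled array and 14.98 on the heated one. Its low array was the unheated control, and its range was 0.71 log2 units. HSP30, with a range of 1.74, varied more than 72.9% of all genes and more than 86.7% of the 543 genes in the brightest 10% by mean level. These ranges follow how a gene's own probe set moved, and they say nothing of how much RNA one gene had against another, since probe sets differ in brightness.

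**Figure D1:**
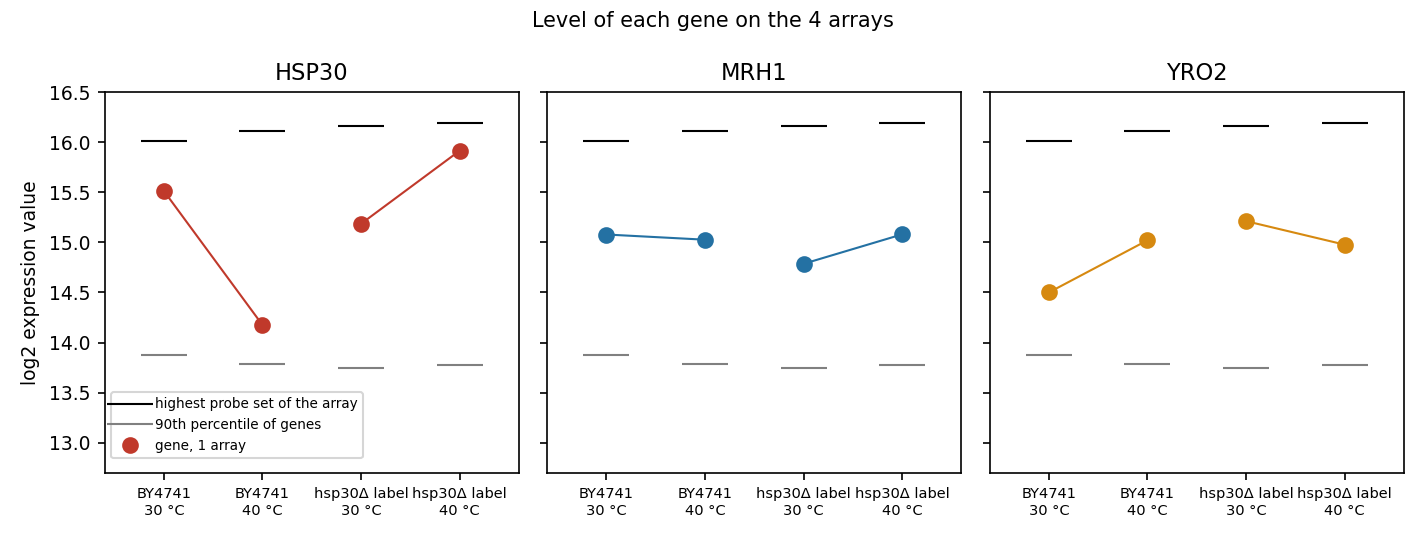
Log2 expression value (vertical axis) of HSP30, MRH1 and YRO2 on the 4 arrays, 1 point an array, with lines joining 30 °C and 40 °C of the same strain label. Black dashes mark the highest probe set of each array and grey dashes the 90th percentile of genes; HSP30 spans 14.18 to 15.91, MRH1 14.79 to 15.08 and YRO2 14.50 to 15.21.

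All 3 genes read above the 90th percentile of genes on every array. HSP30 was above 99.3% of genes on the unheated control, 92.8% on the heated control, 98.0% on the unheated hsp30Δ-labelled array and 99.9% on the heated one. MRH1 was above 96.1% to 97.7% of genes and YRO2 above 94.4% to 98.1%. The highest probe set of an array read between 16.01 and 16.19. HSP30 was 0.50 log2 units below it on the unheated control and 0.27 below it on the heated hsp30Δ-labelled array, and this bounds how much higher it could have read there.

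In BY4741, HSP30 was lower after heat, by a log2 difference of -1.34, or 2.53-fold. YRO2 differed by 0.52 and MRH1 by -0.05. So 1 of the 3 genes was at least 2-fold lower, in a comparison where 18.8% of 5430 genes lay at least 2-fold down and 18.9% that far up. In the brightest 10% of genes by mean level 9.39% of genes were that much lower, and 31 of 543 had a lower difference than HSP30. A difference of this size was thus common among all genes and less usual among bright ones. In RNA of a whole culture, fewer cells with a transcript and less of it in each cell cannot be told apart. The median of all genes in this comparison was 0.13.

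On the hsp30Δ-labelled arrays, HSP30 lay the other way, 0.73 log2 units or 1.66-fold higher at 40 °C than at 30 °C. MRH1 was 0.29 higher and YRO2 lay at -0.23. None of the 3 reached 2-fold, a bound passed upward by 1.62% and downward by 1.57% of genes. The HSP30 value still exceeded that of 95.3% of all genes, and 14 of 543 genes in the brightest 10% stood above it, among them the a-factor gene MFA1 (1.12) and the translation elongation factor gene YEF3 (0.84). Differences between these arrays were small throughout, with the central 95% of genes between -0.90 and 0.90.

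At 30 °C the strain labels differed little in HSP30. The hsp30Δ-labelled array read -0.33 against BY4741 for HSP30 and -0.29 for MRH1, and 0.71, or 1.64-fold higher, for YRO2. None of the 3 genes reached 2-fold although 23.2% of genes passed it upward and 21.4% downward. The unheated control is subtracted here and in the BY4741 heat comparison alike. The low reading of YRO2 on that array enters both of its differences, 0.71 and 0.52.

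At 40 °C, HSP30 was 3.33-fold higher on the hsp30Δ-labelled array, a log2 difference of 1.74. It was the only one of the 3 genes at least 2-fold higher, against 6.70% of all genes and 3.50% of the brightest 10%, while 3.59% of all genes lay that far down. MRH1 (0.05) and YRO2 (-0.04) read nearly the same on both heated arrays. In the brightest 10% 7 of 543 genes had a higher difference than HSP30. They were LST8 (3.26), a subunit of the TOR kinase complexes, the ER oxidase gene ERO1 (2.79), ATG41 (2.64), APA1 (2.49), ZPR1 (1.91), and the Hsp90 co-chaperone genes HCH1 (1.91) and AHA1 (1.83). They were picked out after their values were seen.

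The heat difference on the hsp30Δ-labelled arrays minus that in BY4741 was 2.07 log2 units for HSP30, 0.35 for MRH1 and -0.75 for YRO2. It uses all 4 arrays once and has no test. For this quantity 21.7% of all genes lay at least 1 log2 unit (2-fold) up and 22.6% that far down, so a value past that bound was usual. Among the 543 genes in the brightest 10% by mean level 12.5% lay that far up and 8 stood above HSP30, led by YEF3 (2.73) and the threonyl-tRNA synthetase gene THS1 (2.56). Each of the 3 genes had heat differences of opposite sign under the 2 strain labels, as had 56.9% of all genes.

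**Figure D2:**
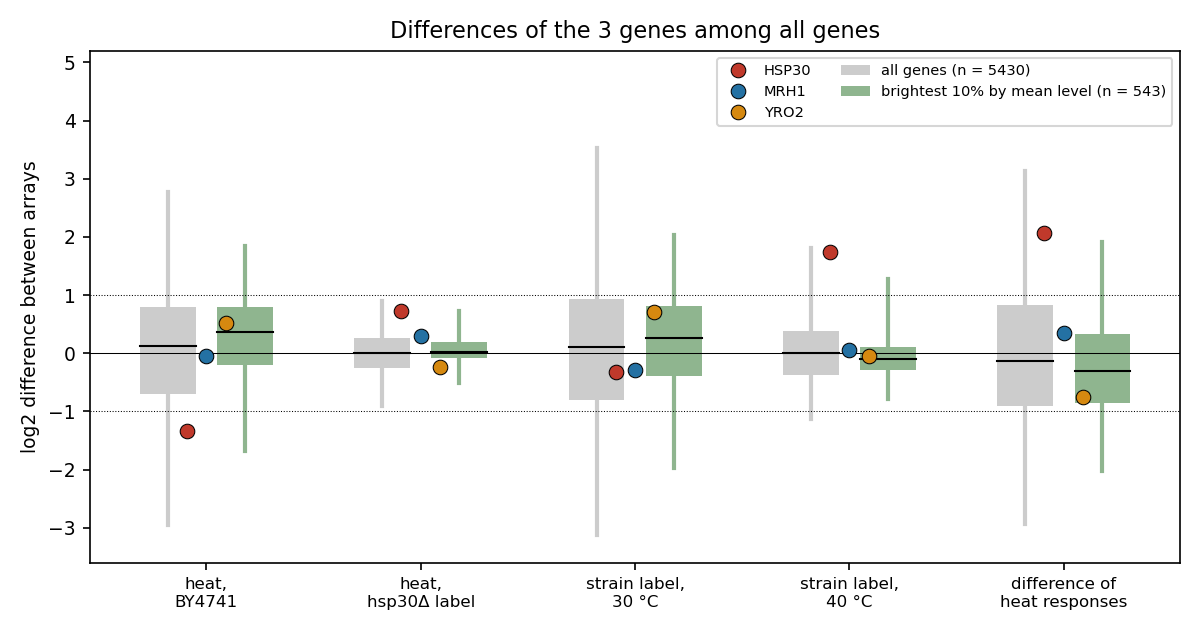
Log2 difference between arrays (vertical axis) of HSP30, MRH1 and YRO2 (points) in the 5 comparisons, 40 °C minus 30 °C for heat and hsp30Δ label minus BY4741 for strain. Grey shows all 5430 genes and green the 543 in the brightest 10% by mean level, with boxes from the 25th to the 75th percentile, a black line at the median and whiskers over the central 95%; dotted lines mark 2-fold, which HSP30 passes for heat in BY4741 (-1.34), for the strain label at 40 °C (1.74) and in the difference of heat responses (2.07).

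A fit over all 4 arrays asked for a heat difference shared by both strain labels and for a strain difference shared by both temperatures. It was made with limma over 5430 genes, with strain label and temperature as additive terms. The 1 residual degree of freedom a gene holds how far its strain difference changed with temperature, array error included. From this disagreement limma draws its standard errors (SE), mainly as pooled over all genes, with 6.02 prior degrees of freedom, and in part from the gene's own. The p values are thus not set against error between replicate arrays. There is no replicate in either part. For strain, HSP30 had a coefficient of 0.70 (SE 0.69, adjusted p 0.783), MRH1 -0.12 (SE 0.57, adjusted p 0.958) and YRO2 0.33 (SE 0.58, adjusted p 0.896), all with Benjamini-Hochberg adjustment over all genes in limma. For heat the limma coefficients were -0.30 (SE 0.69), 0.12 (SE 0.57) and 0.14 (SE 0.58), with an adjusted p of 0.998 for each. None of the 3 genes passed, where 11 of 5430 genes, 0.203%, passed upward and 0 downward for strain (305 and 140 at an unadjusted p under 0.05), and 0 either way for heat (52 and 57). The residual of HSP30, whose sign of difference turned with temperature, was larger than that of 86.0% of genes.

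The heat-shock gene names group HSP30 with chaperones, and its differences lay outside the range of theirs in the 4 single comparisons. Of 13 other genes with an HSP or HSC symbol 11 have a value, among them the disaggregase gene HSP104, the Hsp90 genes HSP82 and HSC82, the small heat shock genes HSP26 and HSP42, the mitochondrial chaperonin genes HSP60 and HSP10, and HSP78, the mitochondrial relative of HSP104. In the BY4741 heat comparison 10 of these 11 were higher at 40 °C and all 11 stood above HSP30 at -1.34, with a median of 0.38 and a range from -0.23 (HSC82) to 0.92 (HSP78). None of them reached 2-fold. The median was 0.13 over all genes and 0.37 over the brightest 10% by mean level. The median of the 11 was thus close to that of bright genes in general. On the hsp30Δ-labelled arrays 4 of the 11 were higher and 7 lower after heat, from -0.05 to 0.10, all below the 0.73 of HSP30. Their median there was -0.02, against 0.01 over all genes and 0.03 over the brightest 10%.

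Between strain labels at 30 °C all 11 were higher on the hsp30Δ-labelled array, by 0.13 (HSP150, a secreted cell wall protein gene) to 1.24 (HSP78), while HSP30 read -0.33. That 2 of 11 were at least 2-fold higher is no more than among all genes, where 23.2% were. At 40 °C 7 of the 11 were higher, as HSP30 was, and 4 lower, between -0.07 (HSP150) and 0.42 (HSC82), below the 1.74 of HSP30. HSP30 thus differed from these genes in sign at 30 °C, and at 40 °C from most of them in size alone. Many of the 11 read close to the top of the scale, as HSP26 did at 15.89 to 16.11 and HSP12 at 15.86 to 16.04, which bounds their differences. The comparisons share arrays, and no test was made of this contrast.

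**Figure D3:**
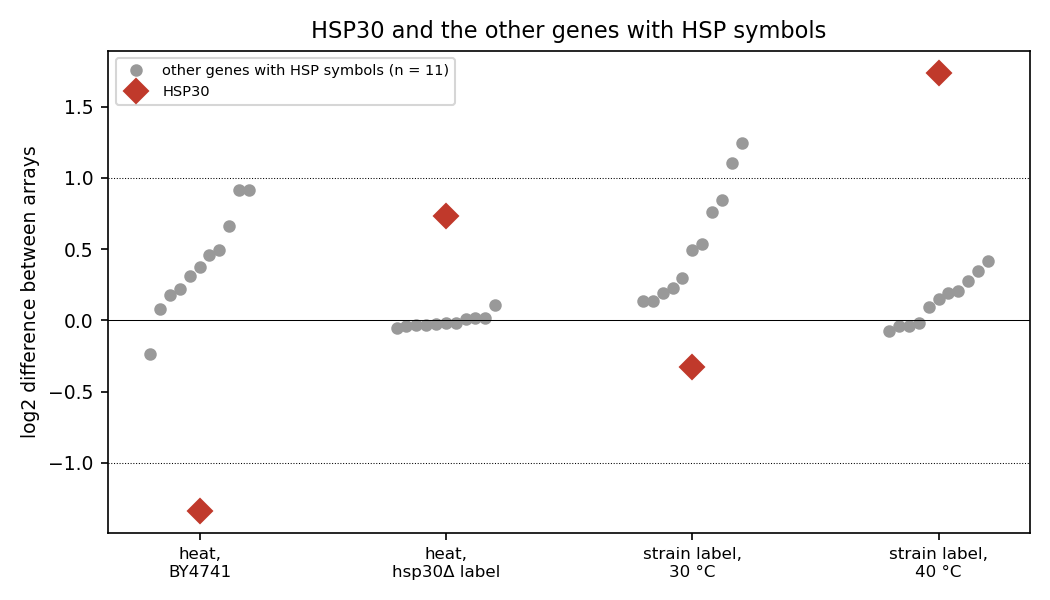
Log2 difference between arrays (vertical axis) of HSP30 (diamonds) and of 11 other genes with HSP or HSC symbols (grey points, sorted by value) in the 4 single comparisons, 40 °C minus 30 °C for heat and hsp30Δ label minus BY4741 for strain. HSP30 lies below all 11 for heat in BY4741 (-1.34) and for strain at 30 °C (-0.33), and above all 11 for heat on the hsp30Δ-labelled arrays (0.73) and for strain at 40 °C (1.74).

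YRO2 had a pattern near that of several of those genes. Likeness of pattern was measured as the Euclidean distance between the log2 values of 2 genes over the 4 arrays after each gene's own mean was subtracted, so that 0 is the same pattern. HSP42 lay 0.18 from YRO2, HSP104 0.18 and HSP82 0.24, nearer than 98.6%, 98.5% and 96.8% of the other 5429 genes. For HSP30 the nearest of the 11 was HSC82 at a distance of 1.03. The 3 relatives were not among each other's nearest genes. MRH1 lay 1.26 and YRO2 1.53 from HSP30, at ranks 1072 and 2124 of 5429 by nearness, where the median gene lay at 1.66. MRH1 and YRO2 lay 0.71 apart, where the median gene lay 0.92 from MRH1 and 0.96 from YRO2.

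The 5 genes nearest in pattern to HSP30 were EFM3, which codes for a methyltransferase of translation elongation factor 2 (distance 0.27), LDB17, an endocytosis gene (0.31), the histone acetyltransferase gene HAT1 (0.34), UPC2, a transcription factor gene of sterol uptake (0.37), and RSC9, a gene of a chromatin remodelling complex (0.40). EFM3 read 9.43 on the unheated and 7.87 on the heated control, and 8.78 and 9.81 under the hsp30Δ label, and so shared the low value on the heated control and the high one on the heated hsp30Δ-labelled array. Within 1 log2 unit of HSP30 lay 353 genes. For MRH1 2979 genes and for YRO2 2878 genes did.

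Nearest to MRH1 were MRP13, a mitochondrial ribosomal protein gene (0.03), the palmitoyltransferase gene PFA4 (0.04), PRC1, the gene of vacuolar carboxypeptidase Y (0.06), the aminopeptidase gene APE2 (0.06) and YFL012W (0.06), which read at most 2.62 and so below the highest fission yeast probe set. Nearest to YRO2 were RSM7, a mitochondrial ribosomal protein gene (0.04), the kinetochore gene IML3 (0.05), ECM21, an adaptor gene for ubiquitination of membrane transporters (0.05), the uncharacterized YER076C (0.08) and CTK1, a kinase gene of RNA polymerase II (0.08). With 4 values a gene, such likeness is a description of these arrays. After quantile normalization 3 of the 5 nearest genes of HSP30, 1 of those of MRH1 and 3 of those of YRO2 were still among the nearest 5.

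**Figure D4:**
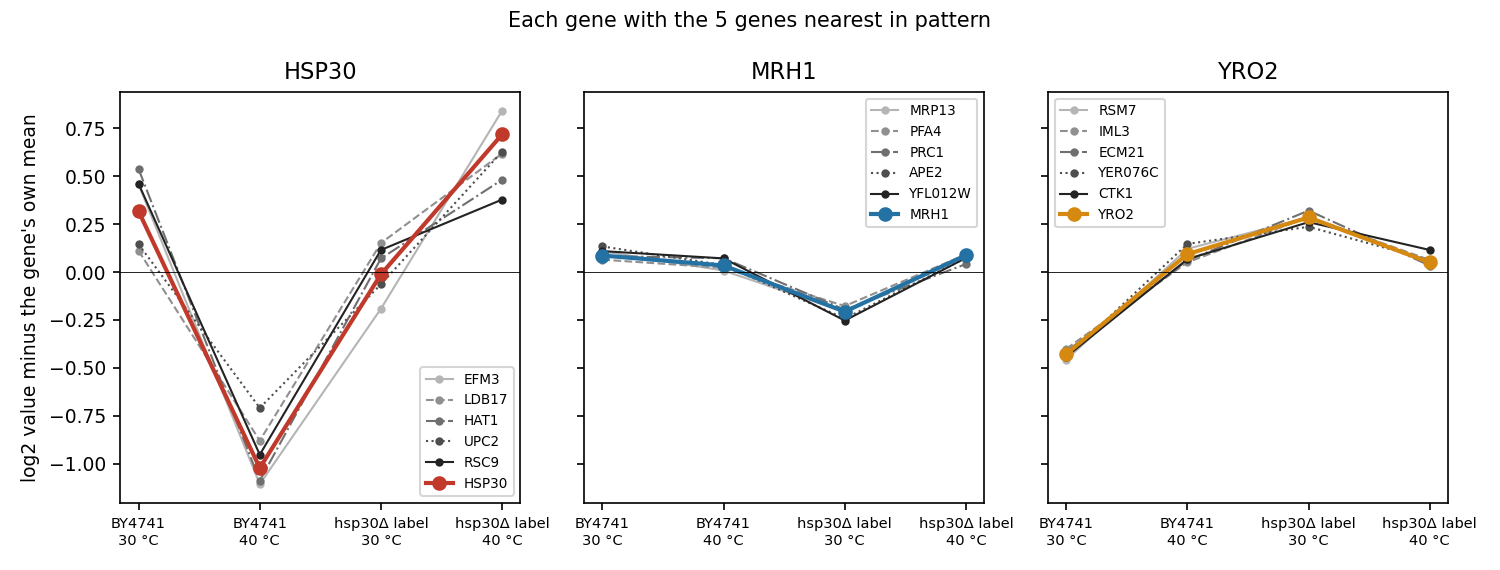
Log2 value minus the gene's own mean over the 4 arrays (vertical axis) for HSP30, MRH1 and YRO2 (coloured) and the 5 genes nearest in pattern to each (grey), 1 point an array. HSP30 and its nearest genes are lowest on BY4741 at 40 °C, MRH1 and its nearest genes are nearly flat, and YRO2 and its nearest genes are lowest on BY4741 at 30 °C.

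PMA1, the gene of the pump that Hsp30 acts on, read 14.94 on the unheated and 13.87 on the heated control, and 14.04 and 14.46 under the hsp30Δ label. Like HSP30, PMA1 was lowest on the heated control (-1.07 for heat in BY4741). It was also higher at 40 °C than at 30 °C under the hsp30Δ label (0.42). These 2 signs of the heat differences were found in 26.6% of all genes. Unlike HSP30, PMA1 read highest on the unheated control, and its strain difference at 30 °C was -0.91 against -0.33 for HSP30. PMA1 lay 0.91 from HSP30, at rank 216 of 5429. Nearer still was SOP4, which codes for an ER membrane protein that helps to deliver Pma1, at a distance of 0.40 and rank 6. Of 13 measured genes of the pump and its regulators 2 were at least 2-fold higher and 4 lower for heat in BY4741 (median -0.43), beside 18.9% higher and 18.8% lower of all genes (median 0.13). For the strain label at 40 °C 1 of 13 was higher and 0 lower (median 0.23), beside 6.70% and 3.59% of all genes (median 0.00). These counts are near the shares of all genes.

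Among weak acid genes, PDR12, the plasma membrane transporter gene that exports weak acid anions, had a pattern close to that of HSP30. PDR12 read 13.77 on the unheated and 12.32 on the heated control, and 13.17 and 13.64 under the hsp30Δ label. It lay 0.40 from HSP30, at rank 7 of 5429. Its differences were -1.45 for heat in BY4741 and 1.31 for the strain label at 40 °C, beside -1.34 and 1.74 for HSP30. AQR1, another transporter gene of weak acid resistance, lay 0.72 from HSP30. PDR12 and AQR1 were the nearest to HSP30 in a list of 14 measured Haa1 targets and weak acid genes, which did not move together. For heat in BY4741, 2 of the 14 passed 2-fold upward and 3 downward, PDR12 and AQR1 among the latter (median 0.27). GRE1 lay the other way from PDR12, at 1.88 for heat in BY4741 and -1.85 for the strain label at 40 °C. ATO2 also had the opposite sign to PDR12 in both.

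HAA1 itself read 10.93 and 11.53 on the control arrays but 13.44 and 13.02 under the hsp30Δ label. Its strain differences were 2.52 and 1.49 at 30 °C and 40 °C, and it did not pass in limma (adjusted p 0.457). Of 14 measured genes of the list of Haa1 targets and weak acid genes, which does not hold YRO2, 6 were at least 2-fold higher and 0 lower for the strain label at 30 °C (median 0.65), and 6 higher and 1 lower at 40 °C (median 0.48). HAA1 itself is on the list and is counted at both temperatures. The count at 40 °C also takes in PDR12 (1.31) and AQR1 (1.12). Of all genes 23.2% were higher and 21.4% lower at 30 °C (median 0.11), and 6.70% higher and 3.59% lower at 40 °C (median 0.00). PHM8 (2.58 and 2.75) and YLR297W (3.33 and 1.84) were among those higher at both temperatures, and their limma adjusted p values for strain were 0.217 and 0.323. After quantile normalization both passed in limma, with adjusted p values of 0.0246 and 0.0333. YRO2, at 0.71 and -0.04, did not share the differences of PHM8 and YLR297W at 40 °C. Of the Haa1 list the genes nearest to YRO2 were SPI1, a cell wall protein gene, at 0.29, and WAR1, the transcription factor gene behind PDR12, at 0.36. They were at ranks 273 and 496 of 5429, so that many genes outside the list lay nearer to YRO2.

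Eisosomes are furrows of the plasma membrane. Of 14 genes of eisosomes and their membrane compartment 6 were at least 2-fold higher and 0 lower for heat in BY4741 (median 0.95), and 7 were higher and 1 lower for the strain label at 30 °C (median 1.05), a pair of comparisons that share the unheated control. For heat under the hsp30Δ label and for the strain label at 40 °C 0 of 14 reached 2-fold either way, with medians of -0.13 and -0.09. The shares of all genes past 2-fold were 18.9% upward and 18.8% downward for heat in BY4741 (median 0.13), and 23.2% and 21.4% for the strain label at 30 °C (median 0.11). For heat under the hsp30Δ label the shares were 1.62% and 1.57% (median 0.01), and for the strain label at 40 °C 6.70% and 3.59% (median 0.00). In these 4 comparisons YRO2 lay at 0.52, 0.71, -0.23 and -0.04 in that order. Of this list FMP45, a protein gene of that compartment, was nearest to YRO2, at a distance of 0.27 and rank 221 of 5429. For MRH1 the nearest gene of the list was PIL1, a core eisosome gene, at 0.39 and rank 523 of 5429.

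The genes beside HSP30 on chromosome III were read as a further look at the labelled locus. The reference gene table (assembly R64) was used for gene order alone. Of the 6 protein-coding genes on each side 10 of 12 have a value. HTL1, which is the next gene on one side and codes for a chromatin remodelling subunit, read 7.90 and 6.87 on the control arrays and 5.77 on both hsp30Δ-labelled arrays, so that both arrays of that label were lower. MAK31, one gene further and a subunit gene of a protein acetyltransferase, read 10.43 and 9.97 on the control arrays, against 9.05 and 8.99 under the hsp30Δ label.

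The strain differences were -2.13 and -1.10 for HTL1 and -1.37 and -0.98 for MAK31 at 30 °C and 40 °C. In limma, HTL1 had a strain coefficient of -1.61 (SE 0.60, adjusted p 0.572) and MAK31 one of -1.18 (SE 0.57, adjusted p 0.624), so that neither passed. After quantile normalization HTL1 passed, with a limma strain coefficient of -2.52 (SE 0.64, adjusted p 0.0395), and MAK31 did not (adjusted p 0.446). The fit after quantile normalization had 21.0 prior degrees of freedom, against 6.02 as deposited. Over all genes 57 of 5430, 1.05%, were at least 2-fold lower in both strain comparisons, and HTL1 was among them. The 2 readings of HTL1 under the hsp30Δ label are identical, and it is 1 of 27 probe sets above the lowest value for which this pair of arrays gives the same number. On the other side the next gene has no value here, and the one after it, YCR023C, a transporter-like gene, differed by 0.08 and 0.20. SRD1, 5 genes from HSP30 on the side of HTL1, lay the other way, at 0.56 and 1.08. Of the 10 neighbours 2 were at least 2-fold lower and 0 higher at 30 °C (21.4% and 23.2% of all genes), and 1 was lower and 1 higher at 40 °C (3.59% and 6.70%). The median over the 10 neighbours was -0.15 at 30 °C and -0.12 at 40 °C.

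**Figure D5:**
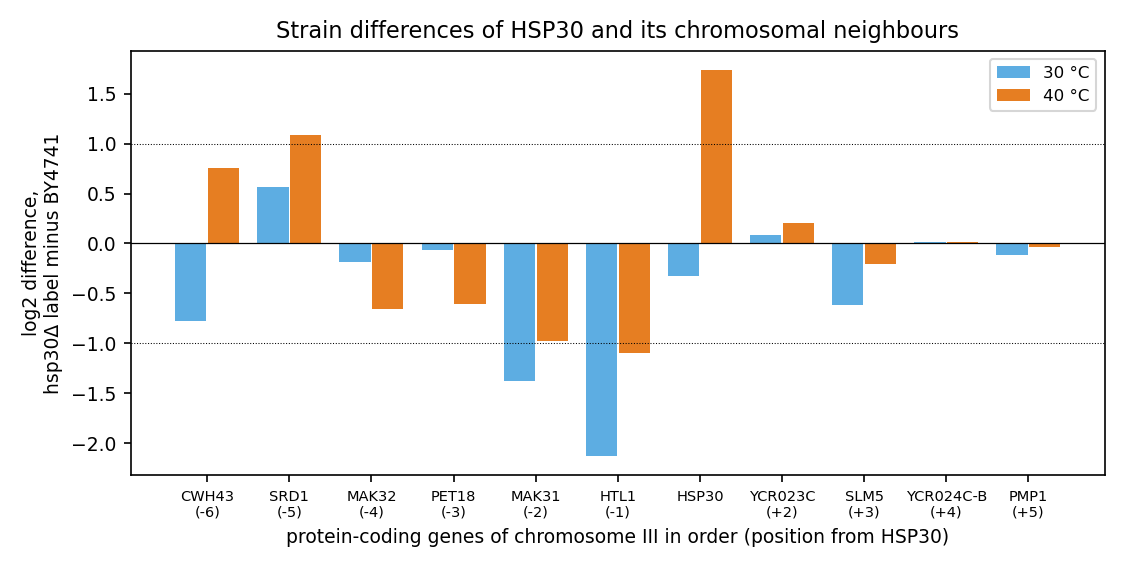
Log2 difference, hsp30Δ label minus BY4741 (vertical axis), at 30 °C (blue) and 40 °C (orange) for HSP30 and the 10 of its 12 nearest protein-coding genes that have a value, in chromosome order. HTL1 (-2.13 and -1.10) and MAK31 (-1.37 and -0.98) on one side are lower at both temperatures, SRD1 (0.56 and 1.08) further along that side is higher, and HSP30 itself differs by -0.33 and 1.74.

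Mating type genes were read as a check of the labelled a mating type. The 6 a-cell genes lay between 12.23 and 14.80 on all arrays. Of 4 alpha-cell genes the pheromone genes MF(ALPHA)1 and MF(ALPHA)2 read 2.61 to 3.69 and 3.83 to 5.95, the receptor gene STE3 7.12 to 8.71 and the agglutinin gene SAG1 9.61 to 10.86. The 4 arrays had medians over all probe sets of 11.13 to 11.19, and between 5392 and 5426 genes above background.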

How the data were processed

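The authors deposited 1 table of log2 expression values for 5802 probe sets on 4 arrays. It has 0 columns of other samples. The deposited log2 values were made with GCRMA and MAS5, per the submitters' processing notes, which give no versions, roles or order, and the genome build is not given in the sources used here. Their scale and centring are not stated. They were used as deposited. Of the probe sets 5515 are named in the annotation and 287 are not. Of the named, 5483 have 1 budding yeast gene by gene ID and 32 are of fission yeast. Symbols come from RefSeq R64, with 12 updated. A gene is read from its probe set with the highest mean, giving 5436 genes.

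Background, 1.96, was the 95th percentile over probe sets of fission yeast (median of the arrays). Genes above it on at least 1 array (5430) were compared, with lower values raised to it. With 1 array a group, single comparisons have no test and a difference of at least 2-fold was counted. The only test was limma 3.58.1 in R 4.3.3 on unfloored values (adjusted p under 0.05). Its code was run on simulated data in which no strain difference changed with temperature. That run checks the code and says nothing of the error rate on these arrays. Other values came from Python 3.11.15 with pandas 2.3.3. The number of arrays limits the precision.

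Genes are named by rule: the 3 genes, the 5 nearest in pattern to each, PMA1 and MET17. From each list up to 3 genes with the largest difference could be named, and not all of these are. Genes nearest in pattern within a list, genes above HSP30, the background over the brightest 10% of genes, and other genes named to describe a list were chosen after values were seen. The 3 genes and the lists were chosen with earlier results of these data known. Listed genes with no value used here are AZR1, NRE1 (YIR035C), PSG1, EXP1, HSP32, HSP33, LEU2 and URA3, and MET17 was not above background. Alternatives were quantile normalization, median centring, no floor, a higher floor, the mean of probe sets and, for limma, no filter. Protein identity and promoter motifs were planned and not analysed here.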

Additional observations from a re-analysis of the deposited data

Results flagged for a closer look

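HSP30 had heat differences of opposite sign under the 2 strain labels, -1.34 in BY4741 and 0.73 on the hsp30Δ-labelled arrays, which gives a difference of 2.07 log2 units. MRH1 (-0.05 and 0.29, a difference of 0.35) and YRO2 (0.52 and -0.23, a difference of -0.75) also had opposite signs. With 1 array a group none of these differences was tested, and 56.9% of all genes had opposite signs.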

How the results depend on the processing

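Over 31 results and 135 recomputed values, 129 kept their direction and their side of the threshold, or for counts stayed within 1.5 times, and 6 moved. Every difference of HSP30, MRH1 and YRO2 kept its sign and its side of 2-fold under quantile normalization, median centring, no floor, a higher floor and the mean of probe sets. The number of genes past limma for strain was 110 (80 higher, 30 lower) under quantile normalization, 3 under median centring and 0 with no filter on dim genes (smallest adjusted p 0.0804, with 284 higher and 104 lower before adjustment at 0.05), against 11, and the cause was not tested. HSP30, MRH1 and YRO2 passed in none of these fits, while HTL1 (lower), PHM8 and YLR297W (higher) passed for strain under quantile normalization alone, with adjusted p values of 0.0395, 0.0246 and 0.0333. The prior degrees of freedom of limma were 21.0 under quantile normalization, 5.41 under median centring and 4.79 with no filter, against 6.02. Of the 5 genes nearest in pattern, quantile normalization left 3 for HSP30, 1 for MRH1 and 3 for YRO2. At 40 °C, 65.1% of the genes at least 2-fold apart between strain labels were higher as deposited and 53.5% under quantile normalization. No array could be left out, since each group has 1 and the additive fit would keep no residual degree of freedom. No paired analysis was possible because the groups share only 1 replicate number; the additive limma fit itself sets arrays against each other within a temperature and within a strain label. Values near the top of the scale and near the fission yeast probe sets limit what the arrays can show.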
